A study of Mus musculus with 12 samples.

Results

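The interleukin-6 family is described here by 6 genes of 31719 distinct symbols in a table of expression values from RAW264.7, a macrophage-like line of mouse cells. They were chosen by symbol: the cytokines Il6, Lif and Osm, the receptor chains Il6ra and Il6st, and the feedback inhibitor Socs3. Each symbol occurred once in the table. Wild-type cells were left untreated, treated with anti-CD36 antibody (diluted 1 in 100), treated with LPS (50 ng/ml), or treated with LPS and the antibody at those amounts, and RNA was sequenced in 4 groups of 3 libraries. LPS, from the outer membrane of Gram-negative bacteria, activates macrophages by way of TLR4, and CD36 takes up fatty acids and oxidised lipoproteins. The study set out to compare gene expression between these treatments. The labels name no isotype control antibody and no treatment time, and all 4 groups come from 1 cell line. Nor do they tell if the libraries of a group are separate cultures, so the p-values reflect the spread among these libraries alone, which may be technical.

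Cytokines of the interleukin-6 family signal through the shared receptor chain gp130, the product of Il6st. IL-6 first binds the chain encoded by Il6ra, on the same cell or in shed form, while LIF and oncostatin M, the products of Lif and Osm, bring gp130 together with the chains encoded by Lifr and Osmr. Engaged gp130 activates JAK kinases and the transcription factor STAT3, and STAT3 induces Socs3, whose product binds gp130 and stops the signal. In macrophages stimulated through TLR4, NF-kB and partner factors switch on Il6, and RNA-binding proteins limit the life of its mRNA.

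Depth, recovered from the steps in the values, ran from 30070450 to 54137810 fragments per library, with 14212 to 14878 genes above 0. Levels are FPKM, which divides fragments by gene model length and library depth, and can be compared between genes because they are per length. Differences are in log2(FPKM + 1), which understates the change of genes at low levels. Genes with a limma p-value under 0.05 after Benjamini-Hochberg adjustment over all genes tested are said to be called. The cells carried macrophage markers: 8 of the 9 on the list passed the filter on low values, and their summed level was 3440 to 5190 FPKM, mostly Lyz2. Of the lists for T cells, B cells, neutrophils, fibroblasts, epithelium and endothelium, 1 gene passed the filter, the T cell kinase gene Lck, while Cd3d reached at most 0.0204 FPKM, Cd3e at most 0.00645, and Cd8a was listed at 0 throughout.

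The Il6 values of the untreated and anti-CD36 libraries could not be used. In all 3 untreated and all 3 anti-CD36 libraries they equalled those of another entry, the long noncoding RNA gene Gm10874, and in none of the 6 libraries given LPS. The level of Il6 without LPS is therefore not reported, and Il6 enters only the comparison of LPS with and without the antibody.

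The promoters of Il6 and Lif are printed because, of the members with a value in each comparison, Lif had the largest change with LPS and Il6 the largest when the antibody was added to LPS. RefSeq promoter sequences (build GRCm38.p6) matched 5 of the 6 members, all but Osm. Each run covers the 250 bases before the RefSeq transcript start, on the plus strand, at chr5:30012864-30013113 for Il6 and chr11:4257318-4257567 for Lif. Capitals mark matches, on either strand, to 5 motifs.
Il6: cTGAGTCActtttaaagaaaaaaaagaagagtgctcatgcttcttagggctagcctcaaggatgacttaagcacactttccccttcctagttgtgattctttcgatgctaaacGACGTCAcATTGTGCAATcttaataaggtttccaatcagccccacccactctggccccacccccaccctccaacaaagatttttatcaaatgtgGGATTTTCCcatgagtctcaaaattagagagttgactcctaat
Lif: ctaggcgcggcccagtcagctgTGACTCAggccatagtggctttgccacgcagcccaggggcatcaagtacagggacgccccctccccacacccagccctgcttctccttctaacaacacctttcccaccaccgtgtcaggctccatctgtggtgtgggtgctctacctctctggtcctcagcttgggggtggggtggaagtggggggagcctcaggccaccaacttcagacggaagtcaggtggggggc

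The motifs searched were GGANTTTCC for NF-kB, TTGNNCAAT for C/EBP, GACGTCA for the cyclic AMP response element (CRE), TGANTCA for AP-1 and TTCNNNGAA for STAT factors. The Il6 promoter held 4 of the 5. Read towards the start, they were AP-1 (TGAGTCA, 249 to 243 bases before it), the CRE (137 to 131), C/EBP (128 to 120, with a match on the other strand at 129 to 121 that overlaps it) and NF-kB (GGATTTTCC, 43 to 35). Of 32851 RefSeq promoters of this length, 1.07% held the NF-kB motif, 2.27% C/EBP, 2.78% the CRE, 6.75% AP-1 and 7.02% the STAT motif. The Lif promoter held AP-1 alone (TGACTCA, 228 to 222 bases before the start). The Socs3 promoter held the STAT motif alone (TTCTTAGAA, 154 to 146 bases before the start), and those of Il6ra and Il6st held none of the 5. The Socs3 window, chr11:117969367-117969616 on the minus strand, precedes the RefSeq start. It lies inside the GENCODE M21 gene model, which reaches 117970047, so by that model the motif is within the gene. These matches describe the letters in the window and are not measured binding sites.

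**Figure D1:**
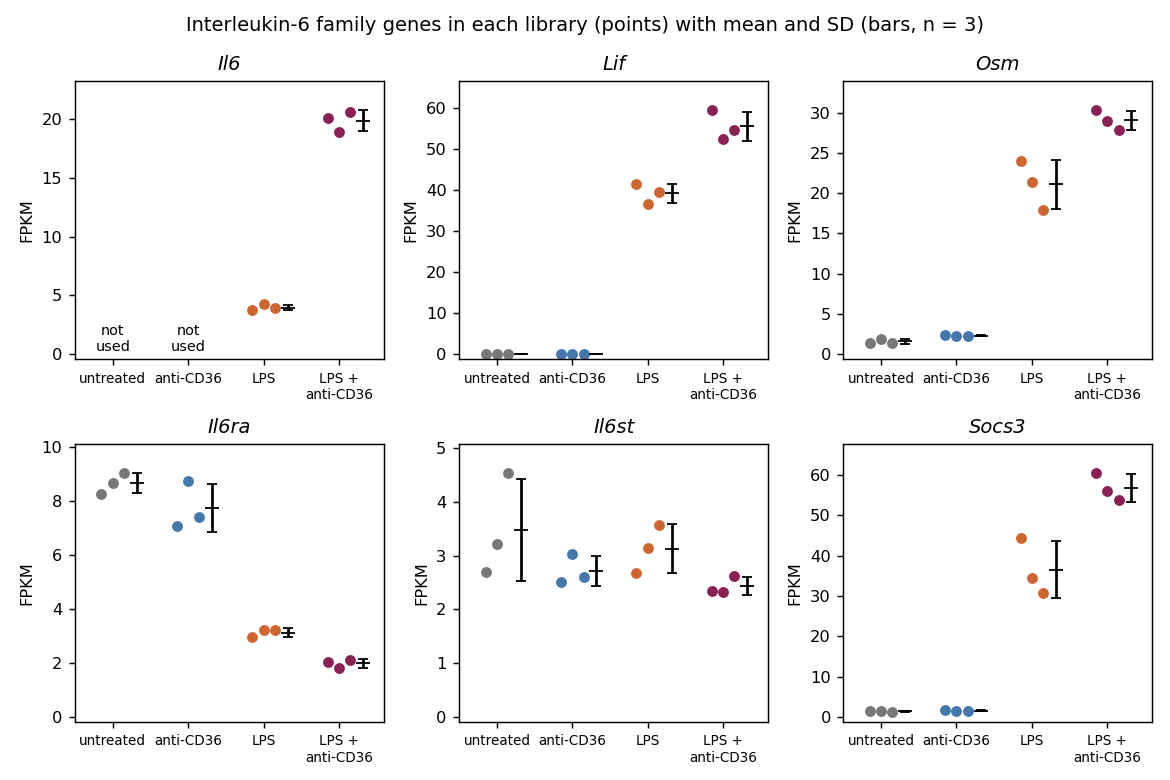
FPKM of each member (y axis, from 0) in every library (points, replicates 1 to 3 from left to right) by group, with the mean and SD of 3 libraries (bars). Lif, Osm and Socs3 are highest with LPS plus antibody, Il6ra is lowest there, Il6st lies between 2.33 and 4.54 FPKM in all groups, with the LPS plus antibody libraries (2.33 to 2.63) just below those of LPS (2.67 to 3.58), and Il6 is not used without LPS.

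LPS was compared with no treatment to show the response of the family to the stimulus. Lif, Osm and Socs3 rose and Il6ra fell, while Il6st was not called. Of the 5 members with a value, 3 were called higher and 1 lower, against 16.6% and 33.1% of 10276 genes tested (49.8% in either direction). The median change of the 5 was 3.09, and that of all genes tested was −0.14. Lif passed the filter on low values only through libraries given LPS, so it had to differ here, and the count and median describe the members without supporting a difference.

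Lif (chromosome 11, 4257557 to 4272514, plus strand, in the GENCODE M21 annotation of GRCm38), which encodes leukaemia inhibitory factor, was close to absent without LPS. It stood at 0.0510, 0.0306 and 0.102 FPKM in the untreated libraries, which rested on 12, 4 and 16 fragments. With LPS it stood at 41.4, 36.7 and 39.5 FPKM. Every LPS library was far above every untreated one, and the mean was 642 times the untreated mean (39.2 ± 2.37 against 0.0611 ± 0.0367, SD, n = 3; log2 change 5.24, 95% interval 5.07 to 5.41, limma adjusted p = 5.16e-13). In RNA from whole cultures, more cells that express a gene and more RNA per cell cannot be told apart.

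Osm (chromosome 11, 4236420 to 4241026, plus strand), the neighbour of Lif, encodes oncostatin M, a cytokine made mainly by myeloid cells. Unlike Lif it was already measurable in untreated cells, at 1.44, 1.93 and 1.38 FPKM. With LPS it reached 24.0, 21.4 and 17.9 FPKM, well above every untreated library. The mean rose 13.3-fold (21.1 ± 3.07 against 1.58 ± 0.304, n = 3; log2 change 3.09, 95% interval 2.86 to 3.33, limma adjusted p = 8.91e-10).

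Il6ra (chromosome 3, 89864059 to 89913196, minus strand), the chain that binds IL-6 itself, went the other way. It stood at 8.28, 8.69 and 9.04 FPKM untreated and at 2.95, 3.23 and 3.21 with LPS, so the groups lay well apart. The LPS mean was 0.361 of the untreated mean (3.13 ± 0.157 against 8.67 ± 0.383, n = 3; log2 change −1.23, 95% interval −1.41 to −1.04, limma adjusted p = 2.61e-07). Its first exon overlaps the antisense gene Gm42809, and whether the counting used strand is not given in the sources used here.

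Il6st (chromosome 13, 112464070 to 112510086, plus strand), which encodes gp130, overlapped between the groups. It stood at 2.69, 3.21 and 4.54 FPKM untreated and at 2.67, 3.15 and 3.58 with LPS. The log2 change was −0.10 (95% interval −0.40 to 0.20, limma adjusted p = 0.577). Untreated replicate 3 was the highest of all 12 libraries, and without it the change was 0.06. It was 0.02 with median-of-ratios scaling.

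Socs3 (chromosome 11, 117966079 to 117970047, minus strand), the feedback inhibitor, stood at 1.51, 1.46 and 1.28 FPKM untreated. With LPS it reached 44.3, 34.5 and 30.8 FPKM. The LPS libraries spread more widely than those of Il6ra or Lif for their level, but all lay far above the untreated ones (36.5 ± 7 against 1.42 ± 0.118, n = 3; ratio 25.8, log2 change 3.94, 95% interval 3.69 to 4.19, limma adjusted p = 1.62e-10).

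These 4 calls kept their direction and their side of the threshold in all 24 alternative settings. Summed levels of the 13 mitochondrially encoded mRNAs moved with LPS as well, from 32942 to 40133 FPKM untreated to 26554 to 28516 with LPS, and the summed T cell list, nearly all Lck, from 1.71 to 2.35 untreated to 4.98 to 7.77 with LPS. The B cell list went from 0.152 to 0.392 FPKM to 0.518 to 0.946, and the neutrophil list, at 0 to 0.136 untreated, stood at 0.23 to 0.366 with LPS. The part of these in the results was not tested. With median-of-ratios scaling, 2313 genes were higher and 2245 lower over the whole table, in place of 1710 and 3403.

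The same stimulus was also measured in cells that had the antibody in both arms, and the groups compared share no library with the first comparison. The spread of each gene was estimated from all 12 libraries in both comparisons, so their p-values are not independent. Of the 5 members, the same 3 were called higher, Lif again with the filter in its favour, and the same 1 lower, against 16.3% and 31.3% of all genes (47.5% in either direction). Lif rose from 0.0888 ± 0.0574 to 55.6 ± 3.53 FPKM (n = 3; log2 change 5.70, limma adjusted p = 2.21e-13), and Osm rose from 2.31 ± 0.113 to 29.0 ± 1.2 (3.18, adjusted p = 6.7e-10). Socs3 rose from 1.52 ± 0.116 to 56.8 ± 3.49 (4.52, adjusted p = 4.29e-11). Il6ra fell from 7.75 ± 0.886 to 1.99 ± 0.167 (−1.55, adjusted p = 3.91e-08). Il6st stood at 2.44 ± 0.17 with both and 2.72 ± 0.272 with the antibody (−0.11, 95% interval −0.41 to 0.19, adjusted p = 0.537). The mitochondrial sum was 36425 to 41387 FPKM with the antibody and 26241 to 26806 with both, the T cell list 2.24 to 2.83 and 5.74 to 6.59, the B cell list 0.0459 to 0.387 and 0.448 to 1.13, the neutrophil list 0.189 to 0.259 and 0.286 to 0.547, and the endothelial list 0.23 to 0.314 and 0.435 to 0.693. The part of these in the results was not tested. For the whole table, median-of-ratios scaling gave 2248 higher and 2217 lower here, in place of 1670 and 3212.

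The antibody alone was compared with no treatment to show what it changed in resting cells. By limma 0 of the 5 members were called. Of all genes 0.146% were called higher and 0.195% lower (0.341% in either direction). An unadjusted p under 0.05 was found for 1 member, Osm, and the share of all genes at that threshold is not reported here. Osm stood at 2.42, 2.31 and 2.20 FPKM with the antibody, each above the highest untreated library at 1.93. Its log2 change was 0.36 (95% interval 0.12 to 0.60, limma adjusted p = 0.152).

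The other 4 members overlapped between these groups. Lif stood at 0.145, 0.0305 and 0.0906 FPKM, on 24, 4 and 12 fragments (log2 change 0.04, 95% interval −0.13 to 0.21), and Socs3 at 1.61, 1.39 and 1.56 (0.06, −0.19 to 0.31). Il6ra stood at 7.09, 8.76 and 7.40 FPKM (−0.15, −0.33 to 0.04), and Il6st at 2.51, 3.03 and 2.61 (−0.25, −0.55 to 0.05). For Il6ra and Il6st the interval reached further below 0 than above it. Lif was at −0.02 and Socs3 at −0.13 with the trend of each library with GC content and gene length removed, so for both the sign changed with the setting.

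The effect of the antibody on activated cells was read from LPS with the antibody against LPS. Il6, Lif, Osm and Socs3 rose, Il6ra fell, and Il6st was not called. Of the 6 members 4 were called higher and 1 lower, against 7.35% and 8.14% of 10277 genes tested (15.5% in either direction). The median change of the 6 was 0.47, and that of all genes was 0.02. This comparison shares the LPS libraries with the first one and the combined libraries with the second, so its values are set beside theirs without a measure of overlap.

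Il6 (chromosome 5, 30013114 to 30019981, plus strand), the acute-phase cytokine that names the family, moved furthest of the 6. It stood at 3.77, 4.23 and 3.89 FPKM with LPS, on 296, 324 and 320 fragments. With the antibody added it stood at 20.1, 18.9 and 20.6 FPKM, on 1797, 1853 and 2433 fragments. The 3 libraries of each group lay close together and the groups far apart. The mean rose 5.01-fold (19.9 ± 0.845 against 3.96 ± 0.241, n = 3; log2 change 2.07, SE 0.08, 95% interval 1.89 to 2.26, limma adjusted p = 7.61e-06). For Il6 this fit used the 6 libraries given LPS, and over 25 alternative settings the adjusted p ran from 8.58e-08 to 0.000253. Of these settings 1, run for Il6 alone, kept its deposited values in the untreated and anti-CD36 libraries, which are not used elsewhere.

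The rises of Lif and Osm were smaller, and their groups did not overlap. Lif stood at 59.5, 52.6 and 54.8 FPKM with the antibody, all above the highest LPS library at 41.4. The ratio of means was 1.42 (log2 change 0.49, 95% interval 0.32 to 0.66, limma adjusted p = 0.00197), and the adjusted p was 0.117 with a pseudocount of 0.1 FPKM and 0.0510 with TPM scaling. Osm stood at 30.3, 29.0 and 27.9 FPKM against a highest LPS library of 24.0, a ratio of 1.38 (0.45, 95% interval 0.21 to 0.69, adjusted p = 0.0191).

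The call of Osm rested on single libraries. Its adjusted p was 0.0619 without LPS replicate 2, 0.0701 without LPS replicate 3, 0.0796 without LPS plus antibody replicate 1 and 0.0684 without replicate 2 of that group. It was also lost with TPM scaling (0.0641) and in a fit of only the groups compared (0.0538).

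Il6ra fell further with the antibody. It stood at 2.05, 1.80 and 2.12 FPKM, each below the lowest LPS library at 2.95. The ratio of means was 0.636 (log2 change −0.47, 95% interval −0.65 to −0.28, limma adjusted p = 0.00488). Il6st stood at 2.35, 2.33 and 2.63 FPKM, just below the lowest LPS library at 2.67. Its log2 change of −0.26 was not called (95% interval −0.56 to 0.04, adjusted p = 0.197).

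Socs3 stood at 60.5, 56.0 and 53.7 FPKM with the antibody, each above the highest LPS library at 44.3. The ratio of means was 1.55 (log2 change 0.64, 95% interval 0.39 to 0.89, limma adjusted p = 0.00475). The calls of Il6, Il6ra and Socs3 held in all of their alternative settings, with adjusted p up to 0.0324 for Il6ra and 0.0382 for Socs3. Neither the macrophage list (4110 to 5190 FPKM with LPS, 4590 to 4920 with both) nor the mitochondrial sum (26554 to 28516 and 26241 to 26806) separated these groups.

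**Figure D2:**
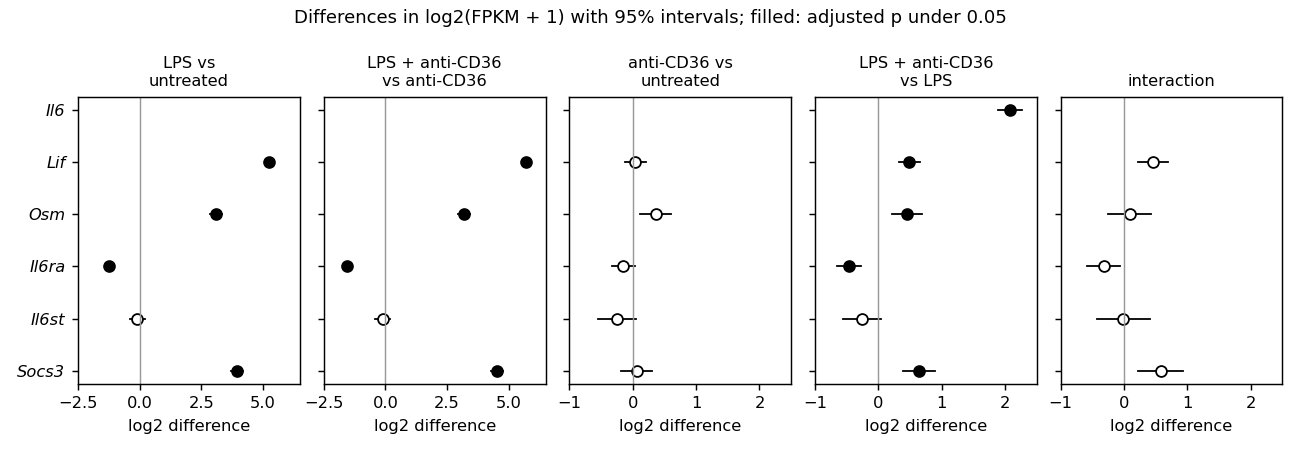
Differences in log2(FPKM + 1) of the 6 members (rows) in the 4 comparisons and the interaction (panels), with 95% intervals (bars); filled points had a limma adjusted p under 0.05. The x axes of the first 2 panels span a wider range than those of the other 3. LPS with the antibody against LPS shows Il6 at 2.07, the rises of Lif, Osm and Socs3 between 0.45 and 0.64, and Il6ra at −0.47.

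The order of the 4 groups differed by role. For Lif, Osm and Socs3 it ran from LPS plus antibody through LPS and antibody alone to untreated. For Il6ra it was the reverse, and for Il6st it was untreated, LPS, antibody alone and LPS plus antibody. Antibody alone and untreated, neighbours in this order for Lif, Osm, Il6ra and Socs3, were not called apart. For Il6st no pair of groups compared was called apart, and LPS (2.67 to 3.58 FPKM) and antibody alone (2.51 to 3.03), which were not tested against each other, overlapped.

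In the groups given LPS the ligand genes stood above the receptor genes. Il6, Lif and Osm summed to 64.3 ± 4.29 FPKM with LPS and 105 ± 4.8 with both (n = 3), while Il6ra and Il6st summed to 6.26 ± 0.594 and 4.42 ± 0.31. Il6 had the lowest level of the 3 ligands in both groups, at 3.96 FPKM with LPS beside 39.2 for Lif and 21.1 for Osm.

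The interaction asks whether the LPS change differed with and without the antibody. By limma 0 of the 5 members with a value were called. Of all genes 0.496% were called higher and 0.788% lower (1.28% in either direction). An unadjusted p under 0.05 was found for 3 members, and the share of all genes at that threshold is not reported here. The difference was 0.46 for Lif (95% interval 0.22 to 0.70, adjusted p = 0.0854), 0.58 for Socs3 (0.22 to 0.93, adjusted p = 0.179) and −0.32 for Il6ra (−0.58 to −0.06, adjusted p = 0.405). It was 0.09 for Osm (−0.25 to 0.43) and −0.01 for Il6st (−0.43 to 0.41), and the sign of both changed between settings. Socs3 was called without LPS replicate 1 (adjusted p = 0.00788), the library with its highest LPS value. With the GC content and length trend removed the adjusted p was 0.0179 for Lif and 0.00111 for Socs3. Both were also called with the replicate number as a block. Of 23 settings, 3 gave a call for Lif and 4 for Socs3. The difference ran from 0.30 to 0.50 for Lif and from 0.47 to 0.72 for Socs3, whose adjusted p reached 0.421. As a ratio of means, Lif with against without the antibody was 1.45 in cells without LPS, on few fragments, and 1.42 with LPS. The difference for Lif on the log2(FPKM + 1) scale thus does not appear in these ratios. Il6 has no interaction value.

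The rest of the pathway was read from 8 lists of 72 genes, of which 54 passed the filter on low values. With LPS against untreated 33 rose and 2 fell, 64.8% of the tested genes against 49.8% of all genes (medians 0.57 and −0.14). The antibody alone gave 0 calls by limma, against 0.341% of all genes called. An unadjusted p under 0.05 was found for 18 of the 54, and the share of all genes at that threshold is not reported here. LPS with the antibody against LPS gave 6 higher and 9 lower, 27.8% against 15.5% (medians 0.08 and 0.02). LPS with the antibody against antibody alone gave 35 and 3, 70.4% against 47.5% (medians 0.61 and −0.12), and the interaction gave 4 and 3, 13% against 1.28%. Of the 54, 7 passed the filter only through libraries given LPS (Il27, Il11, Cish, Saa3, Lcn2, Arid5a and Rhbdf1), and so had to differ between cells with and without LPS. Timp1 reached 1 FPKM in 0 untreated libraries and 1 given the antibody alone. It too would not have passed without the libraries given LPS, so the filter favoured its rise with LPS. These counts are therefore a description. The 15 calls of LPS with the antibody against LPS became 31 without LPS replicate 1, and 9 without LPS replicate 2 or any 1 of the 3 libraries given both.

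Among the 8 other ligands, 3 were tested, and Il27 rose with the antibody on top of LPS, as did Il11, which passed the filter through 1 group. Il27, the p28 subunit of interleukin-27, stood at 0.548 ± 0.206 FPKM untreated, 46.2 ± 8.96 with LPS and 89.8 ± 7.77 with both (n = 3; LPS plus antibody against LPS 0.96, limma adjusted p = 0.000987). Il11, a gp130 cytokine with its own receptor chain, went from 0.221 ± 0.122 to 1.36 ± 0.2 (0.95, adjusted p = 7.03e-05). It was tested only because its 3 libraries given both reached 1 FPKM, so it had to be higher there, and its p supports nothing. Ebi3, the partner subunit of Il27, rose with LPS from 5 ± 0.832 to 24.2 ± 2.11 (2.08, adjusted p = 1.44e-07) and stood at 32.5 ± 1.21 with both (adjusted p = 0.0566). Of the untested ones, the highest library was 0.626 FPKM for Ctf1, 0.495 for Cntf and 0.143 for Clcf1, and Il31 was listed at 0 throughout.

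None of the 6 other receptor chains passed the filter. Lifr, the chain LIF needs beside gp130, reached at most 0.103 FPKM: it stood at 0.0432 to 0.103 untreated and at no more than 0.00574 in any library given LPS. Osmr, the chain of oncostatin M, was above 0 in 1 library, at 0.00487. The highest values were 0.74 for Il11ra1, 0.171 for Il27ra and 0.0118 for Cntfr, and Il31ra was listed at 0. So Lif and Osm, at 39.2 and 21.1 FPKM with LPS, stood beside partner chains near 0.

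**Figure D3:**
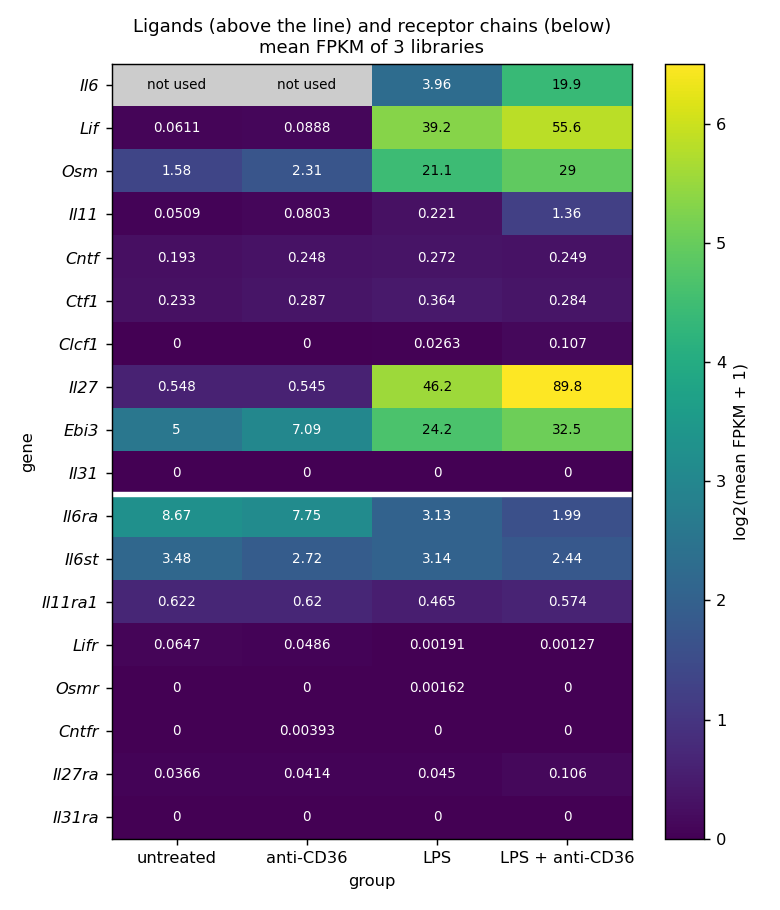
Mean FPKM (numbers, n = 3) of ligand genes (above the line) and 8 receptor chain genes (below) in the 4 groups; colour is log2 of the mean FPKM plus 1. With LPS plus antibody Il27, Lif, Ebi3 and Osm stand at 89.8, 55.6, 32.5 and 29 FPKM, while Lifr and Osmr are near 0 in every group.

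Downstream of gp130, 11 kinases, STAT factors, phosphatases and adaptors were tested, and 5 rose and 0 fell with LPS. That is 45.5% of them, against 49.8% of all genes called in either direction and 16.6% called higher. The count is a description of the list. Stat3, the main STAT of the pathway, rose from 6.8 ± 0.512 to 11.2 ± 1.06 FPKM (n = 3; 0.64, limma adjusted p = 3.43e-05), the kinase gene Tyk2 from 5.84 ± 0.183 to 8.42 ± 0.696 (0.46) and the adaptor gene Gab2 from 3.91 ± 0.342 to 11.4 ± 0.323 (1.34). With the antibody added to LPS, Stat5a rose (from 2.16 ± 0.174 to 3.18 ± 0.232, 0.40, adjusted p = 0.00624) and Gab2 fell (to 9.16 ± 0.257, −0.29, adjusted p = 0.0245). The call of Gab2 was lost without LPS replicate 2 or 3 or any of the 3 libraries given both (adjusted p up to 0.0926). Stat3 stood at 9.58 ± 0.121 with both (−0.20, 95% interval −0.37 to −0.03, adjusted p = 0.102). Gab1 was listed at 0.

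Of the other inhibitors of JAK-STAT signalling 5 were tested, and none of them was called higher with the antibody on top of LPS, as Socs3 was. Cish, which restrains STAT5, rose with LPS from 0.00575 ± 0.00996 to 1.61 ± 0.0863 FPKM (n = 3; limma adjusted p = 1.33e-08) and stood at 1.86 ± 0.0673 with both (adjusted p = 0.19). Its libraries given both (1.81 to 1.94 FPKM) all lay above those given LPS (1.55 to 1.71), without a call. Socs7 fell from 6.49 ± 0.342 to 5.04 ± 0.231 (−0.31, adjusted p = 0.0221) and Socs5 from 4.66 ± 0.483 to 3.39 ± 0.246 (−0.37, adjusted p = 0.034). These 2 falls were lost in 5 and 10 of 24 settings, with adjusted p up to 0.102 and 0.137. With LPS alone Socs7 rose by 0.22 (adjusted p = 0.0345, lost in 7 settings) and Pias1 fell by 0.43 on the log2 scale (adjusted p = 0.0471, lost in 14). Socs1 and Socs2, not tested, reached at most 0.634 and 0.0512 FPKM.

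All 9 tested genes known as STAT3 targets rose with LPS, against 16.6% of all genes called higher (medians 1.82 and −0.14). Saa3 and Lcn2 passed the filter on low values only through libraries given LPS, so they had to differ here. Timp1, which reached 1 FPKM in 0 untreated libraries, also needed the libraries given LPS to pass. The count is a description. Saa3, an acute-phase protein gene, rose from 0.443 ± 0.0837 to 16.9 ± 5.4 FPKM (n = 3; 3.60) and Pim1, a survival kinase gene, from 3.11 ± 0.394 to 32.3 ± 4.12 (3.02). With the antibody added, 3 rose and 1 fell, 44.4% of the 9 against 15.5% of all genes in either direction (7.35% higher, 8.14% lower). Lcn2, whose product withholds iron from bacteria, rose from 11.4 ± 2.79 to 48 ± 0.865 (2.01, limma adjusted p = 3.43e-06), and Timp1, which encodes a metalloproteinase inhibitor, went up from 18.6 ± 4.89 to 88.5 ± 9.56 (2.21, adjusted p = 1.07e-05). Bcl3, an NF-kB cofactor gene, rose from 4.44 ± 1.29 to 8.21 ± 0.407 (0.79, adjusted p = 0.00399). Mcl1, a survival gene, fell from 200 ± 3.62 to 166 ± 0.886 (−0.27, adjusted p = 0.0294), lost in 8 settings (up to 0.116). Pim1 stood at 35.5 ± 0.896 with both (adjusted p = 0.351).

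Of 14 regulators of Il6 transcription, 9 rose and 0 fell with LPS. That is 64.3% of them, against 49.8% of all genes called in either direction and 16.6% called higher. Among the 9 were Nfkbiz, an NF-kB cofactor gene needed for Il6 (from 2.61 ± 0.516 to 66.3 ± 7.58 FPKM, n = 3, log2 change 4.22), and Nfkb1 (from 10.6 ± 0.535 to 20.3 ± 1, log2 change 0.88). With the antibody on top of LPS, 0 rose and 3 fell by limma. That is 21.4% of the 14, against 15.5% of all genes called in either direction and 8.14% called lower. An unadjusted p under 0.05 was found for 7, and the share of all genes at that threshold is not reported here. Atf3, a repressor of Il6 transcription, fell from 81.4 ± 3.27 to 34.5 ± 0.537 (−1.21, limma adjusted p = 4.03e-05), and Jun, an AP-1 subunit gene, from 24.3 ± 4.03 to 15.1 ± 1.3 (−0.64, adjusted p = 0.00363). Hif1a, the oxygen-sensing factor gene, fell from 67 ± 12.8 to 44 ± 3.42 (−0.58, adjusted p = 0.0411), lost in 10 settings (up to 0.156). Nfkbiz stood at 51.7 ± 2.91 with both (−0.35, 95% interval −0.60 to −0.09, adjusted p = 0.0666), and Nfkb1 at 21.9 ± 0.49 (adjusted p = 0.279).

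Of 8 regulators of Il6 mRNA decay, 4 rose and 0 fell with LPS. That is 50% of them, against 49.8% of all genes called in either direction and 16.6% called higher. Zc3h12a, whose product Regnase-1 degrades Il6 mRNA, rose from 2.85 ± 0.104 to 28.1 ± 5.69 FPKM (n = 3; 2.90), and Zfp36, which encodes the decay factor tristetraprolin, from 9.85 ± 0.699 to 83.7 ± 13.3 (2.95). Arid5a, whose product stabilises Il6 mRNA, rose from 0.15 ± 0.0266 to 0.986 ± 0.106 (0.79). It passed the filter on low values only through libraries given LPS, so it had to differ here. With the antibody added 1 was called, 12.5% of the 8 against 15.5% of all genes. Zfp36l1, a relative of Zfp36, fell from 38.3 ± 2.47 to 20.4 ± 1.02 (−0.88, limma adjusted p = 2.58e-05). Rc3h1, which encodes Roquin-1, another factor of this decay, stood at 6.94 ± 0.413 against 12.1 ± 3.21 (−0.69, adjusted p = 0.0501). Zc3h12a stood at 33 ± 1.8 (adjusted p = 0.17), Zfp36 at 87.8 ± 2.19 (0.632) and Arid5a at 1.13 ± 0.0872 (0.332).

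The IL-6 receptor is shed from the cell surface by ADAM proteases, and 4 of 5 listed genes of shedding were tested. With LPS, Rhbdf2, a cofactor gene of ADAM17, rose from 4.99 ± 0.221 to 16.9 ± 1.82 FPKM (n = 3; 1.58), its relative Rhbdf1 rose from 0.511 ± 0.163 to 1.47 ± 0.181 (0.71), and Adam10 fell from 109 ± 26.2 to 43.4 ± 7.61 (−1.29, limma adjusted p = 6.53e-05). With the antibody added Adam10 fell to 27.7 ± 2.47 (−0.62, adjusted p = 0.0332), lost in 9 settings (up to 0.127). Adam17 stood at 16.6 ± 1.83 against 22 ± 6.42 (−0.35, 95% interval −0.83 to 0.13). Timp3 was listed at 0.

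**Figure D4:**
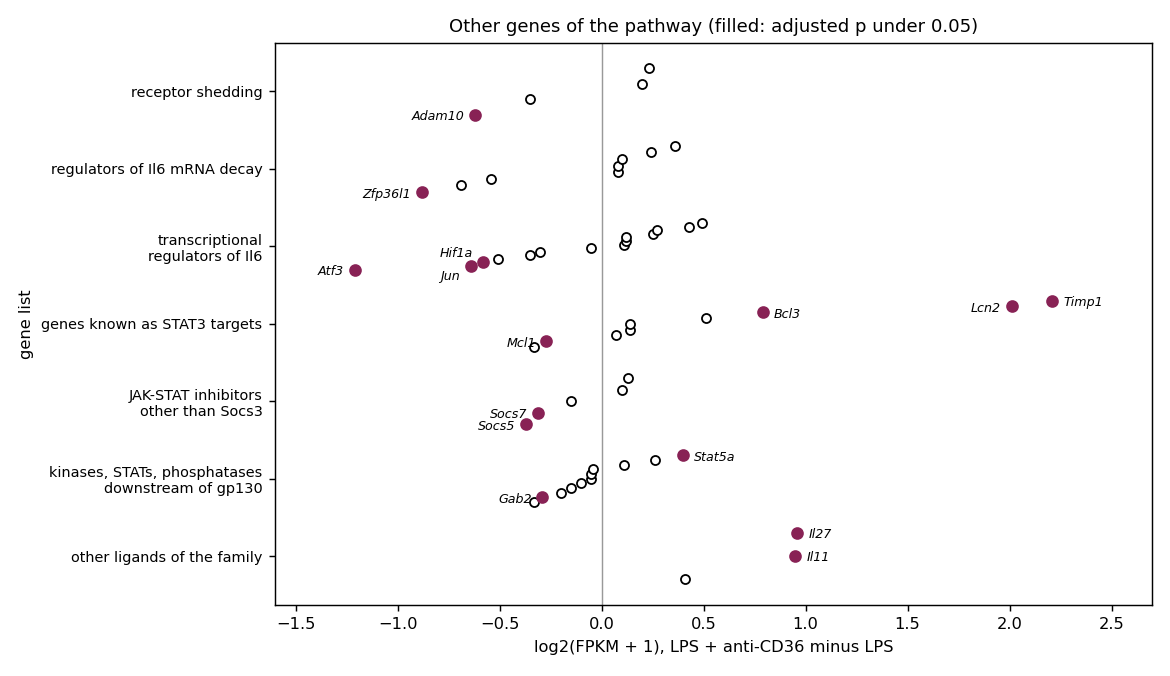
Change in log2(FPKM + 1) between LPS plus antibody and LPS (x axis) for the tested genes of 7 pathway lists (y axis); filled points with names had a limma adjusted p under 0.05, and height within a list only separates the points. Timp1 and Lcn2 lie furthest to the right, at 2.21 and 2.01, and Atf3 furthest to the left, at −1.21; no gene of the eighth list, the other receptor chains, was tested.

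Likeness of pattern was measured by Pearson's r of log2(FPKM + 1) over the 12 libraries, or the 6 given LPS for Il6, as a description. The libraries fall into 4 treatment groups, so a high r mostly repeats the group means. The 3 genes most like Lif were Csf3, Il1b and Edn1 (r 0.9994, 0.9994 and 0.9993), and 507 of 9673 genes had an r above 0.95 with it. The Il1b value of untreated replicate 2 was not a whole number of fragments. For Socs3 they were Urah, Csf3 and Cxcl11 (0.9995 to 0.9989, 517 genes above 0.95) and for Osm Slc15a3, Il1rn and Traf1 (0.9991 to 0.9981, 524 genes). For Il6ra they were Gramd4, Kbtbd11 and Prss35 (0.9968 to 0.9951, 405 genes).

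Il6st was the member with the fewest like genes, 81 above an r of 0.95. Those nearest to it were Chd8, Sptan1 and Usp24 (0.9899 to 0.9824), whose gene models of 16523, 13362 and 12350 bases, like that of Il6st at 11099, are long beside the median of 4300 over the genes tested. For Il6 the genes were Eif1ax, Gstt4 and Akap12 (0.9998, 0.9995 and 0.9978). Over only 6 libraries in 2 groups this reflects little beyond the difference between the groups. Eif1ax ranged from 29.1 to 37.6 FPKM over those libraries and Akap12 from 0.174 to 4.14, so genes that changed by very different amounts share the pattern.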

How the data were processed

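RNA of 12 libraries was measured by RNA sequencing, and 1 deposited table of FPKM values, made by the authors, was used. HISAT2 2.0.5 and the builds mm39 and hg38, without roles, are named per the submitters' processing notes. The counter, annotation and strand setting are not given in the sources used here. Gene coordinates and lengths come from GENCODE M21 (GRCm38), not from those builds.

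Of 31801 entries, 82 repeats of a symbol were left out, keeping the entry of highest mean. Depth was recovered from the steps of the FPKM values in Python 3.11.15 (pandas 2.3.3, numpy 2.4.6). At GENCODE M21 exon-union lengths, 94.5% of 17645 matched entries above 0 were whole fragments in every library, within 0.005 fragments. The counting coefficient of variation was 50% for 4 fragments and 5.81% for 296, and covers counting error only.

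The filter kept genes that reached 1 FPKM in 3 or more libraries: 10277, or 10276 without Il6. In R 4.3.3, limma 3.58.1 fitted the means of the 4 groups to log2(FPKM + 1) with an intensity trend and no block. Il6 was set to missing in the untreated and anti-CD36 libraries. P-values were Benjamini-Hochberg adjusted over all genes tested, per comparison. The model was tested on simulated data.

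Members and lists were chosen with earlier results of these data known. Named genes are the 6 members, up to 4 called genes of smallest p per pathway list and pairwise comparison, every gene of the lists called with antibody alone or in the interaction, and the 3 genes most like each member; others were named after their values were seen, and some list genes are not reported here. Alternatives were pseudocounts of 0.1 and 0.5 FPKM, no filter or 5 FPKM, and TPM and median-of-ratios scaling. The limma fit was also run without the intensity trend, with its robust option, and with a replicate block. Other settings were removal of the GC content and length trend, with and without the block, only the groups compared, and leaving out each library. The 6 mitochondrial symbols listed for RNA quality matched no entry, so 13 symbols without the prefix were used, chosen after the data were seen.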

Additional observations from a re-analysis of the deposited data

Results flagged for a closer look

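In 7 genes of the pathway lists the LPS change differed with and without the antibody in the interaction test (limma, adjusted over all genes tested). In none of the 5 members with a value did it pass. The difference, LPS change with minus without the antibody on the log2(FPKM + 1) scale, was 2.06 for Lcn2 (adjusted p = 0.000143), 1.59 for Timp1 (0.00506), 0.95 for Il27 (0.0329) and 0.91 for Il11 (0.00396). Il11 passed the filter on low values only through the 3 libraries given both, so its p supports nothing. The difference was −1.16 for Atf3 (0.00263), −1.01 for Jun (0.00636) and −0.75 for Zfp36l1 (0.00393). The call of Il27 was lost in 13 of 23 settings (adjusted p up to 0.31), among them those without LPS replicate 2 (0.107), LPS replicate 3 (0.0695), LPS plus antibody replicate 1 (0.106) or 2 (0.107), antibody replicate 1 (0.0772), 2 (0.0759) or 3 (0.11) and untreated replicate 2 (0.103) or 3 (0.0716). With a pseudocount of 0.1 FPKM the adjusted p was 0.675 for Timp1 and 0.0804 for Il11, and with TPM scaling it was 0.135 for Timp1. Atf3, Jun, Lcn2 and Zfp36l1 kept their calls in all 23 settings. Groups of 3 are too small for a test of single outlying libraries.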

How the results depend on the processing

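Of the members' alternative values 580 kept direction and call, 19 changed sign, 8 lost a call and 8 gained one. The cause of the changes was not tested. Il6st LPS versus untreated was 0.02 with median-of-ratios scaling and −0.23 to 0.06 (without untreated replicate 3) with 1 library left out. Lif with antibody alone was −0.02 with the GC content and length trend removed, with or without the block, and 0.00 (without antibody replicate 1) to 0.08 with 1 library left out, and Socs3 was −0.13 under both. In the interaction Osm was −0.06 with a pseudocount of 0.1 FPKM, −0.05 with TPM scaling, and −0.02 to 0.18 with 1 library left out, and Il6st was 0.02 with the trend removed, with or without the block, and −0.18 to 0.12 with 1 library left out.

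Members called with LPS plus antibody against LPS were 3 of 6 with TPM scaling, in place of 5. Over all genes this comparison called 2484 with the trend removed, 940 in a fit of only the groups compared, 583 to 849 without LPS replicate 2 or 3 or 1 of the libraries given both, and 3980 without LPS replicate 1, in place of 1592, and in the pathway lists 25 with the trend removed and 9 to 31 with 1 library left out, in place of 15. TPM scaling gave 387 higher and 790 lower in place of 755 and 837. Antibody alone called 439 with the trend removed, 16 (11 higher, 5 lower) with TPM scaling, 0 with only the groups compared, 1 to 18 without untreated replicate 2 or 3, LPS replicate 2, or 1 library of antibody alone or of both, and 131 without LPS replicate 1, in place of 35 (15 higher, 20 lower). Its 0 in the pathway lists became 9 with the trend removed, 1 with a pseudocount of 0.1 FPKM and 0 to 2 with 1 library left out. The interaction called 401 with the trend removed, 85 with a filter of 5 FPKM and 77 to 161 with 1 library left out (77 to 83 without untreated replicate 2, antibody replicate 3, LPS replicate 2 or 1 of the libraries given both), in place of 132 (TPM scaling 27 higher, 77 lower, in place of 51 and 81), 4 in place of 7 in the pathway lists with a pseudocount of 0.1 FPKM, and 2 members with the trend removed and 0 to 1 with 1 library left out, in place of 0.

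Same-numbered libraries deviated together in 6 of 6 pairs for replicate 1 (r 0.45 to 0.78). They did so in 1 of 6 for replicate 2 and 3 of 6 for replicate 3. In turn, 4, 0 and 3 libraries correlated best with their own number. Replicates 1 and 3 thus shared some deviation and replicate 2 little. The labels do not say what a number marks, so the main fit held no block. With the replicate number as a block, antibody alone called 1164 genes, 14 in the lists and 1 member (Osm, adjusted p = 0.0336), LPS plus antibody against LPS 3646 and 27, and the interaction 212 and 2 members (Lif 0.024, Socs3 0.0372). With the block and the trend removed these were 984 and 11, 3588 and 27, and 555 and 2. Totals of calls in either direction for LPS versus untreated and LPS plus antibody versus antibody alone stayed within 1.5 times. With a filter of 5 FPKM Il6st was not tested. Lif rests on 4 to 24 fragments per library without LPS, so changes there are not detectable at this depth unless large.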
